A study of Mus musculus with 2 samples.

Results

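The disc rim genes described here are 6 genes, Prph2, Rom1, Abca4, Prom1, Cdhr1 and Prcd, taken from 32285 features of the count matrix by their symbols. The matrix comes from 1 library of single nuclei of mouse eye tissue, made with SeekSpace, a method in which each nucleus carries a barcode that places it on a chip. Per the labels it derives from 1 cryosection, 10 micrometres thick, of 1 eye of the C57BL/6J strain, with no treatment, and the study's design text places its spatial work at 6 months of age. That text sets heterozygous Prph2C213Y/+ mice against wild-type mice matched for age and sex. It leaves this library without a genotype, so no comparison of genotypes was made, none was read from the values, and whether the Prph2 transcripts counted here come from 1 or both kinds of allele is not known. A second sample is the library of spatial barcodes of the same section and holds no expression of its own.

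A photoreceptor outer segment is a stack of flattened membrane discs, renewed from its base and shed at its tip to the retinal pigment epithelium (RPE). Each disc has a flat face and a sharply curved rim, which the tetraspanins peripherin-2 (Prph2) and Rom1 shape by assembling into larger complexes. Abca4, a transporter of the disc rim, moves retinal bound to phosphatidylethanolamine out of the disc lumen. Prom1, or prominin, and Cdhr1, a photoreceptor cadherin, act where new discs form at the base of the outer segment, and Prcd is a small disc membrane protein. The proteins sit in the outer segment, whereas the counts below are RNA recovered with nuclei.

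Of 17285 barcodes, 16867 nuclei were kept, with a median of 1811 unique molecules (UMIs) each, and 17 classes were named from marker genes. Rod-like nuclei numbered 5833 with a median of 1070 UMIs, cone-like nuclei 537 with 2440, and RPE-like nuclei 659 with 2939. All 12 rod markers and all 11 cone markers were at least 2 times higher in their own class than in the kept nuclei outside it. Other classes were bipolar-like, amacrine-like, Müller glia-like, ganglion cell-like and horizontal-like nuclei, and classes of tissue around the retina, such as skeletal muscle-like and lens-like nuclei, which the label of retina does not name. The nuclei lay in 4 ring-shaped tissue pieces on the chip, although the labels speak of 1 section, and the pieces are treated as positions, not as replicates. Since there is 1 library, every interval below covers counting error only, and no p-value was computed.

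The members lie on 6 chromosomes of the GRCm38 assembly, and the counts are for whole genes, so no exon or untranslated region is resolved. Prph2 (ENSMUSG00000023978) spans chr17:46910478-46924933 and Rom1 (ENSMUSG00000071648) spans chr19:8927382-8929356, the shortest of the spans at 1975 bases. Abca4 (ENSMUSG00000028125) spans chr3:122043891-122180070, which is 136180 bases, and Prom1 (ENSMUSG00000029086) spans chr5:43993621-44102047, or 108427 bases. Cdhr1 (ENSMUSG00000021803) lies at chr14:37077849-37098347 and Prcd (ENSMUSG00000075410) at chr11:116653889-116668389. The spans thus differ widely, and levels are not compared between members. The Prcd span overlaps Cygb, which was counted separately at 16.6 CPM in rod-like nuclei, and with the strand setting of the counting unknown (not given in the sources used here), reads in the shared stretch are uncertain. Levels are in CPM, a gene's summed UMIs in a class scaled to a class total of 1000000 UMIs.

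The 250 bases before the RefSeq transcription start were read for all members, and 4 are shown because Prph2, Rom1 and Cdhr1 varied most among rod-like nuclei in the values below while Abca4 varied much less. Capitals mark the letters TAATC, the core of the motif bound by the photoreceptor factor Crx, on either strand, so that the other strand's match reads in reverse complement. A longer form with a further C at its end, TAATCC, was searched and capitalised too. It contains the core, and the first capitals of Abca4 are this longer form on the other strand.
Prph2: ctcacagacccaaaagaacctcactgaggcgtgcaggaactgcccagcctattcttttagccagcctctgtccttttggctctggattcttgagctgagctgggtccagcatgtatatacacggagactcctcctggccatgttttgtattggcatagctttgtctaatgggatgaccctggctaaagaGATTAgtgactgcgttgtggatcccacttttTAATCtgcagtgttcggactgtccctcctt
Rom1: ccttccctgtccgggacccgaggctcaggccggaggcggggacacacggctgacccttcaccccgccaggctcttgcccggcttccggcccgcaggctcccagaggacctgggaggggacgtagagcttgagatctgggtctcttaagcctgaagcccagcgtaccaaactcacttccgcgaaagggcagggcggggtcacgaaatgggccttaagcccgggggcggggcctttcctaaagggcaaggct
Cdhr1: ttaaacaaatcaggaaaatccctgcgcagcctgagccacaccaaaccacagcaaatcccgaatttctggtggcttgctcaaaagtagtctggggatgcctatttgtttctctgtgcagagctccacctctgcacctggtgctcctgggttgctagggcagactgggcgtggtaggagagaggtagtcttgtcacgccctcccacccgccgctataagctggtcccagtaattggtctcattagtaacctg
Abca4: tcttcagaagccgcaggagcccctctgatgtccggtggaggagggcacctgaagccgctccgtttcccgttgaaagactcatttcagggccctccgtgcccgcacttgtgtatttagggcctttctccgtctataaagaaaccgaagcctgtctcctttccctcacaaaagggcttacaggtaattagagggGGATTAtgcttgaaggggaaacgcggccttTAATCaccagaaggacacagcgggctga
These lie at chr17:46910228-46910477 (plus strand), chr19:8929357-8929606 (minus strand), chr14:37098348-37098597 (minus strand) and chr3:122044210-122044459 (plus strand) of GRCm38.p6, written in the direction of the gene. The core was found 2 times each in the windows of Prph2, Abca4 and Prcd, 1 time in the second of the 2 windows of Prom1, and not in the windows of Rom1 and Cdhr1. The longer form was found in Abca4 alone among the members. Of 32851 mouse windows of the same length, 19.8% held the core and 6.25% the longer form. TGCTGA, a part of the site bound by the rod factor Nrl, was searched on both strands and was in none of the members' windows and in 16.1% of all windows. A match is a run of letters and not a measured binding site, and the 3 members that varied most include windows with and without the core.

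For each of the 6 genes the highest level was in a photoreceptor class, as for 23.1% of genes measured, and the other photoreceptor class came next. Rod-like nuclei held Prph2 at 2454 CPM (95% interval 2422 to 2486), cone-like nuclei at 1838 CPM (1780 to 1898), and the class after them, bipolar-like nuclei, at 194 CPM. Its partner Rom1 stood at 419 CPM (406 to 433) in rod-like nuclei and, with an overlapping interval, at 421 CPM (394 to 451) in cone-like nuclei. RPE-like nuclei followed at 96.8 CPM. The levels of Prph2 in the classes from adipocyte-like (136 CPM) down to ganglion cell-like nuclei (23.8 CPM) formed a chain in which no neighbours had separate intervals.

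The transporter Abca4 was at 3423 CPM (3386 to 3461) in rod-like, 2231 CPM (2167 to 2297) in cone-like and 1103 CPM (1070 to 1138) in RPE-like nuclei, and each step was clear of the next. Bipolar-like nuclei followed at 370 CPM, and the remaining classes ranged from 222 CPM in adipocyte-like down to 40.6 CPM in ganglion cell-like nuclei. Rod-like nuclei held Prom1 at 1469 CPM (1445 to 1494) and cone-like nuclei at 1023 CPM (980 to 1068), followed by 201 CPM in vascular-like and 156 CPM in amacrine-like nuclei. RPE-like nuclei were the lowest class for Prom1, at 27.4 CPM, although the 4 lowest classes had overlapping intervals.

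Cdhr1 was the member with the reverse order in photoreceptors, at 1063 CPM (1019 to 1109) in cone-like and 593 CPM (578 to 609) in rod-like nuclei. It stood at 248 CPM (232 to 265) in RPE-like nuclei and at 57.4 CPM in bipolar-like nuclei, and at 33.1 CPM or less in every class after those. Prcd was at 272 CPM (262 to 283) in rod-like, 170 CPM (153 to 189) in cone-like and 55.7 CPM (48.3 to 63.9) in RPE-like nuclei, and its remaining classes lay between 5.12 and 21.5 CPM.

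**Figure D1:**
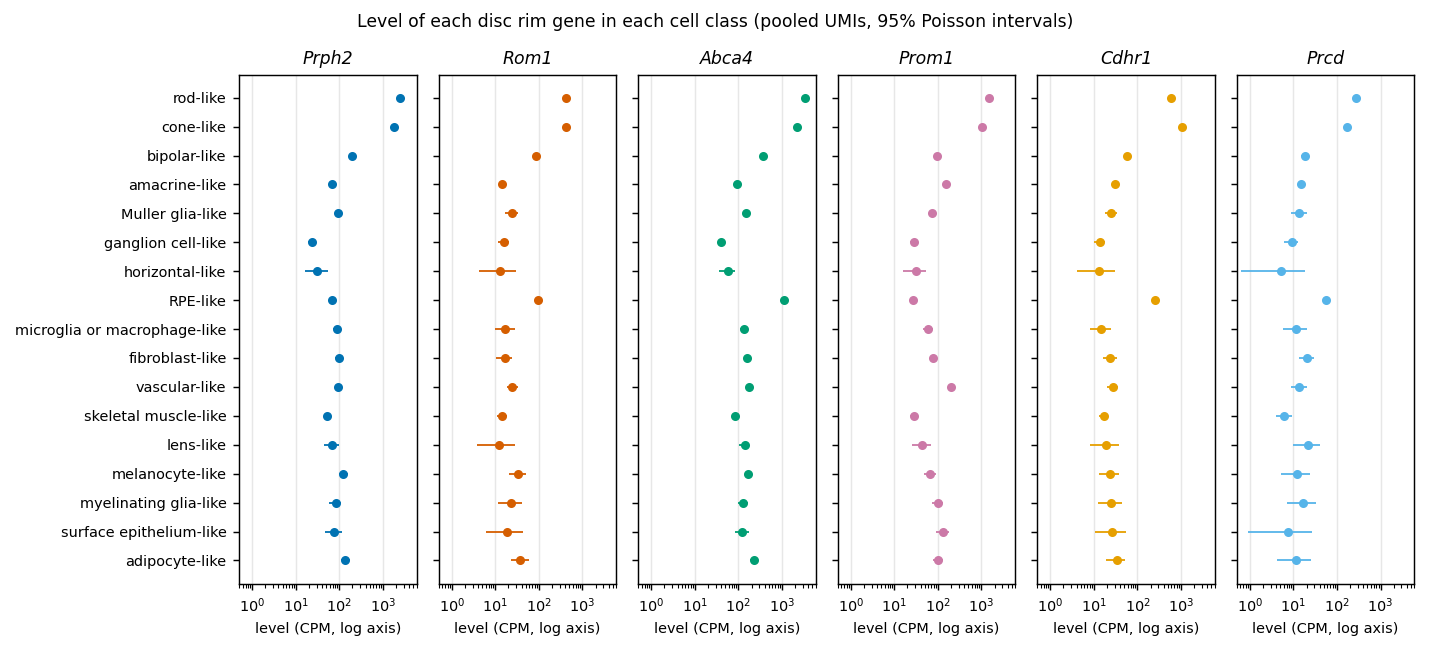
Level of each disc rim gene (CPM, log axis) in each of the 17 named classes; points are pooled levels and bars their 95% Poisson intervals. Rod-like and cone-like nuclei lie highest for all 6 genes. RPE-like nuclei come next for Abca4 (1103), Cdhr1 (248), Rom1 (96.8) and Prcd (55.7). For Rom1 their interval overlaps that of bipolar-like nuclei (84.5).

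A gene was called photoreceptor-high when its level in both photoreceptor classes, by the lower bounds, reached 2 times or more what the upper bounds of all the other classes allow. By that rule 5 of the 6 members were called, beside 1.44% of the 12180 genes measured. Abca4 was not, since the lower bound of its cone-like level (2167 CPM) is less than 2 times the upper bound of its RPE-like level (1138 CPM). Prph2, Rom1 and Prom1 were still called at a ratio of at least 3, whereas Cdhr1 and Prcd were not. With piece 4 left out the same 3 were called.

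At equal depth, detection followed the levels. Thinned to 500 UMIs, 65.6% of 5608 rod-like nuclei held a Prph2 UMI (86.5% unthinned), against 2.02% of 397 ganglion cell-like nuclei (10.3% unthinned, median 8149.5 UMIs), a class that is not known to express the gene. Abca4 was found in 80.1% of thinned rod-like nuclei, Prom1 in 50.4%, Cdhr1 in 20.4%, Rom1 in 16% and Prcd in 13.7%, and in 0.504 to 2.02% of the ganglion cell-like nuclei. In cone-like nuclei the thinned shares were 41.8% for Prph2 and 38.6% for Cdhr1, the member with the higher share there than in rod-like nuclei.

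The cone-like levels need to be read with the rod marker RNA that these nuclei carried. Over all 537 cone-like nuclei, 1 of 6 members was higher in cone-like than rod-like nuclei past a ratio of 1.5 (background 8.29% of genes) and 0 were lower (background 3.23%). Cdhr1 was the higher one, at 1.79 times its rod-like level (1.70 to 1.88), while Rom1 was at 1.01 (0.933 to 1.08) and the other 4 at 0.626 to 0.749. The 12 rod markers, of which some, such as Sag, are known to be expressed in mouse cones too, stood at 0.358 to 1.06 times their rod-like level in the same nuclei, with Gnat1, the rod transducin subunit, at 2745 CPM against 3342 CPM.

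Putting the cone-like nuclei into 4 groups of equal size, by the share of their UMIs that came from the rod markers, separated the members. In the group with the highest share Gnat1 was at 4783 CPM, the median nucleus held 5525.5 UMIs and the cone arrestin Arr3 was at 1954 CPM. In the group with the lowest share Gnat1 was at 93.7 CPM, the median was 2136 UMIs and Arr3 was at 6477 CPM. From the lowest to the highest group Prph2 was at 728, 729, 1009 and 2675 CPM. Rom1 was at 146, 176, 223 and 619 CPM over the same groups. The rim tetraspanins thus reached or passed their rod-like levels in the group that carried the most rod marker RNA. Abca4 was at 1637, 1547, 1881 and 2675 CPM. Prom1 was at 746, 789, 965 and 1175 CPM, and Prcd at 135, 130, 156 and 195 CPM. Cdhr1 was above its rod-like level in every group, at 1058, 968, 789 and 1173 CPM.

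**Figure D2:**
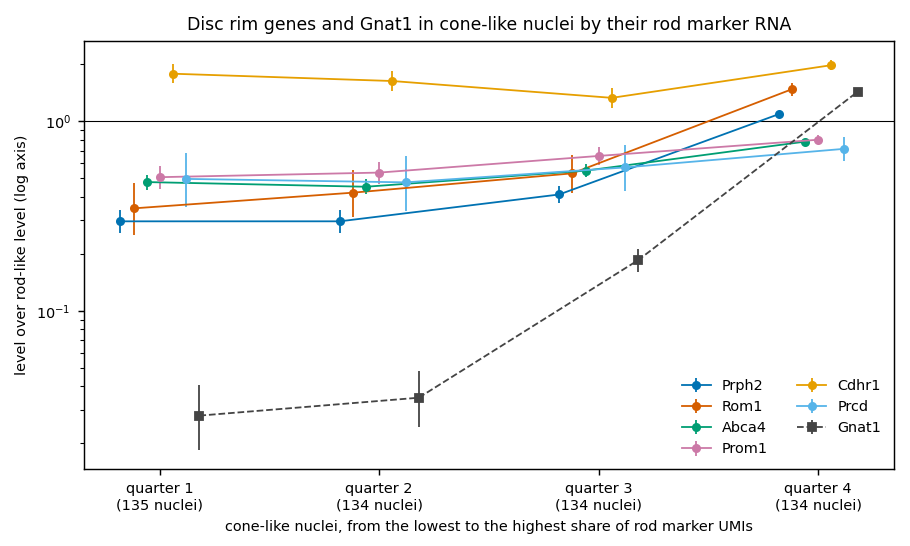
Level of each gene in 4 groups of the cone-like nuclei, ordered by their share of rod marker UMIs, divided by its level in rod-like nuclei (log axis; bars are 95% counting intervals; the line at 1 is the rod-like level). Gnat1 goes from 0.0280 to 1.43 times its rod-like level, Prph2 from 0.297 to 1.09, and Cdhr1 stays above 1 in all 4 groups.

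The 2 groups of lowest share, 269 nuclei with Gnat1 at 105 CPM, are called rod-poor here, and in them Prph2 was at 729 CPM, 0.297 times its rod-like level (0.269 to 0.327). Rom1 was at 0.385 times its rod-like level (0.311 to 0.472), Abca4 at 0.465 (0.435 to 0.496), Prcd at 0.487 (0.383 to 0.610) and Prom1 at 0.522 (0.475 to 0.574). Cdhr1 was at 1012 CPM, 1.71 times its rod-like level (1.57 to 1.86). There 5 of 6 members were lower than in rod-like nuclei past 1.5 (background 5.42%) and 1 was higher (background 8.31%). Rod-poor nuclei were picked by their low rod marker share, which itself sets the rod markers low there. The backgrounds cover all genes measured, not only genes higher in rod-like nuclei. Sag, Pde6g and Gngt1, which were among the rod markers, stood at 0.497, 0.437 and 0.601 times their rod-like levels in rod-poor cone-like nuclei, while Pde6b was at 0.00878. The cut lay at 0.741% of UMIs, with 47 nuclei within 10% of it, and it was set after the data had been seen. How much of the other cone-like levels came from rod RNA was not tested.

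The rod-poor cone-like nuclei could be compared across the pieces, with 57 to 72 nuclei in each. Prph2 lay between 0.285 and 0.377 times the rod-like level of the same piece, and Cdhr1 between 1.55 and 2.14. The direction of both was therefore the same in all 4 pieces. Over all cone-like nuclei Cdhr1 was at 2.06, 2.0, 1.98 and 1.51 times the rod-like level in pieces 1 to 4. By the rule for photoreceptor-high genes, Prph2, Prom1 and Cdhr1 were called when the rod-poor nuclei stood for the cones, and Rom1 and Prcd were not.

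Outside photoreceptors all 12 rod markers were found at a low level, so each member was set beside the 12 rod markers of the same class. A member counted as above them when the lower bound of its level, as a percent of its rod-like level, was over the upper bounds of all 12. In RPE-like nuclei the markers ranged from 2.08 to 6.05% of their rod-like levels. Cdhr1 was at 41.9% (39.0 to 44.9), Abca4 at 32.2% (31.2 to 33.3), Rom1 at 23.1% (20.7 to 25.8) and Prcd at 20.5% (17.6 to 23.6). Prph2 was at 2.83% and Prom1 at 1.87%, within or below the range of the markers. Of genes at least 2 times higher in rod-like nuclei, 55.7% were above the markers in RPE-like nuclei, so the 4 of 6 members called are near the background.

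RPE-like nuclei were also split at their median rod marker share, a choice that itself sets the markers low in the 329 nuclei below it. Abca4 was at 1033 CPM there (985 to 1083) and at 1165 CPM in those above the split. Cdhr1 was at 246 and 250.4 CPM below and above it, Rom1 at 85.5 and 107 CPM, and Prcd at 54.8 and 56.4 CPM. What rod RNA adds to these levels was not tested. By piece, Abca4 was at 1103, 1014, 999.6 and 1271 CPM in RPE-like nuclei of pieces 1 to 4, and piece 4 was highest. Cdhr1 was at 216, 247 and 229 CPM in pieces 2 to 4 and highest in piece 1 (interval 265 to 339 CPM). The RPE-like class was made of 2 clusters, and Abca4 was at 1040 CPM in the one led by Serpine3, Ptgds and Ttr and at 1112 CPM in the one whose leading genes include Rpe65 and Slc6a20a.

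**Figure D3:**
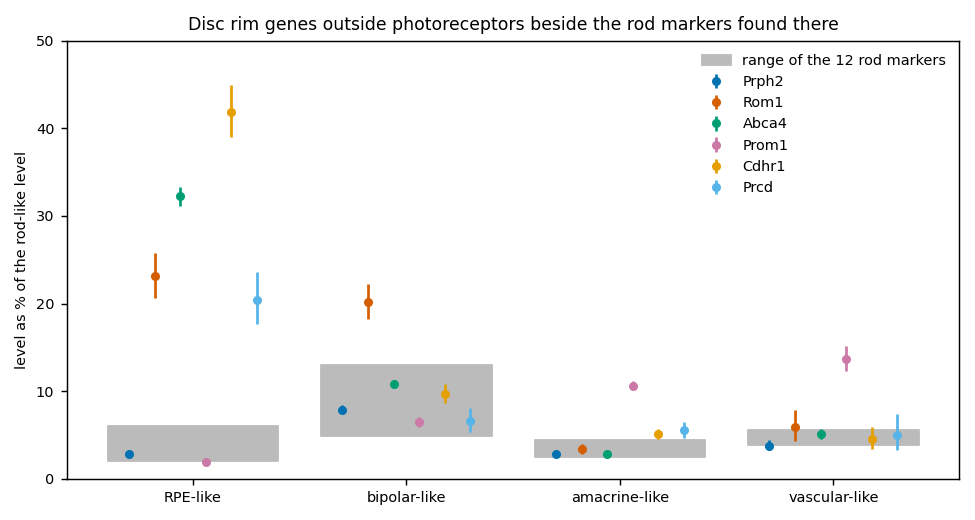
Level of each disc rim gene in 4 classes as a percent of its rod-like level, with 95% counting intervals; grey blocks give the range of the 12 rod markers in the same class. In RPE-like nuclei Cdhr1 (41.9%), Abca4 (32.2%), Rom1 (23.1%) and Prcd (20.5%) lie above the block and Prph2 (2.83%) within it.

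Rom1 was above the rod markers in bipolar-like nuclei too, at 84.5 CPM or 20.1% of its rod-like level (18.3 to 22.2), where the markers reached 12.9%. Background there was 45.3%. Split in the same way, bipolar-like nuclei held Rom1 at 68.2 CPM (57.8 to 80.0) below the median rod marker share and at 95.8 CPM (85.4 to 107) above it. All 5 bipolar-like clusters held it, from 56.1 CPM in the one led by Neto1 and Nxph1 to 153 CPM in the one led by Cnmd and Grin3a. The piece levels were close, at 72.1 to 94.2 CPM.

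Prom1 was above the markers in amacrine-like nuclei, at 10.6% of its rod-like level (background 71.5%), and in vascular-like nuclei, at 13.7% (background 55.4%). Within amacrine-like nuclei it was uneven. A cluster of 349 nuclei led by Npsr1, Vwa5b1 and Lgr5 held 560 CPM (522 to 600), the cluster of starburst genes led by Chat held 65.1 CPM, and a cluster led by Olfm3 and Tfap2e held 20.5 CPM. Rod markers made up 0.114% of UMIs in the first and 0.0343% in the last. In vascular-like nuclei Prom1 was at 163 CPM in the cluster led by the endothelial genes Vwf and Plvap and at 222 CPM in the one led by the mural cell genes Myh11, Rgs5 and Notch3. Split at the median rod marker share, Prom1 was at 132 CPM (100.3 to 171) below and 222 CPM (198 to 247) above it in vascular-like nuclei, and at 126 and 176 CPM in amacrine-like nuclei, lower on the side of less rod marker RNA in both. By piece the vascular-like level was 237, 206, 231 and 125 CPM, lowest in piece 4. Prph2 was above the rod markers in 0 of the 15 other classes. No member was above them in Müller glia-like (background 47.9%), ganglion cell-like (61.4%), horizontal-like (14.1%), microglia or macrophage-like (37.4%), fibroblast-like (49.3%), skeletal muscle-like (65%), lens-like (26.3%), melanocyte-like (15.3%), myelinating glia-like (27%), surface epithelium-like (18.3%) or adipocyte-like nuclei (16.7%).

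Most relatives of the members were highest in other classes, as were most genes, since 23.1% of genes measured were highest in a photoreceptor class. Of 31 tetraspanins, measured or not, 2 were highest in rod-like, 1 in cone-like and 4 in RPE-like nuclei, and 24 in another class. These counts are not read as a trait of the family. Of the 31, 16 were measured and 2 were photoreceptor-high, Prph2 and Rom1 themselves. Tspan5 was next in rod-like nuclei at 561 CPM, but it was also high in lens-like (622 CPM) and RPE-like nuclei (613 CPM). Of 16 ABCA transporters 0 were photoreceptor-high, and the highest in rod-like nuclei after Abca4 was Abca13 at 123 CPM, against 20.5 CPM in cone-like and 27.7 CPM in amacrine-like nuclei. Abca8a was at 1858 CPM in Müller glia-like and 4.72 CPM in rod-like nuclei. Prom2 had 0 UMIs in rod-like nuclei, which allows up to 3 counts, and Cdhr2, Cdhr3 and Cdhr5 had 2 UMIs each there.

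Among all listed genes other than the members, the relatives above included, 22 of 64 measured genes were photoreceptor-high. None of the 22 was such a relative, and all came from the lists of the disc and its supply below. In the list of disc and plasma membrane partners 4 of 9 were called, among them the channel subunits Cngb1 and Cnga1, and the guanylate cyclase Gucy2e. Cngb1 was at 1420 CPM in rod-like nuclei and 20.4 CPM in rod-poor cone-like nuclei, and Gucy2e at 591 and 436 CPM. Of genes for lipid and retinal handling, 5 of 7 measured were called. Atp8a2, a lipid flippase of the disc, was at 2511 and 1022 CPM, and Elovl4, which makes very long fatty acids, at 376 and 131 CPM. Rdh12 and Rdh8, which reduce the retinal that leaves the disc, were at 217 and 76.4 CPM and at 100.2 and 50.9 CPM. Elovl2 had the reverse order, at 99.5 CPM in rod-like nuclei and 343 CPM in rod-poor cone-like nuclei.

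The list of axoneme genes and disc formation had 6 of 9 called. Its 5 named genes by level were Pcdh15, Rpgrip1, Rp1l1, Tulp1 and Rp1. Pcdh15, like Cdhr1 a cadherin, was at 3759 CPM in rod-like and 14245 CPM in rod-poor cone-like nuclei, the order that Cdhr1 had. Rpgrip1 (2322 and 2191 CPM), Rp1l1 (1267 and 1094 CPM) and Tulp1 (1138 and 1330 CPM) lay closer together, and Rp1 was at 1409 and 343 CPM. Of the delivery genes 2 of 9 were called, Unc119 at 502 and 413 CPM and Pde6d at 244 and 447 CPM. Of transcription factors 5 of 9 were called. Esrrb was at 2162 and 102 CPM and Crx at 995 and 1157 CPM, Neurod1 at 304 and 465 CPM, and the rod factors Nrl and Nr2e3 at 438 and 542 CPM against 11.9 CPM each. With rod-poor nuclei standing for cones, 12 list genes in place of 22 were called.

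Across rod-like nuclei the members did not vary together. Rod-like nuclei were put into 4 groups of equal size by the mitochondrial share of their UMIs, the lowest of which held no mitochondrial UMI. The next group, with a mean share of 0.0291% at a median of 1426.5 UMIs, also included nuclei without one. The cut between these groups therefore fell among nuclei of equal share. Prph2 was at 2246, 2116, 2282 and 3062 CPM from the lowest to the highest group. Rom1 was at 325, 313, 355 and 633 CPM, and Cdhr1 at 395, 442, 492 and 935 CPM. These 3 genes were highest in the group with the highest mitochondrial share, with intervals clear of the other 3 groups. Abca4 was at 3626, 3330, 3475 and 3378 CPM, Prom1 at 1439, 1586, 1464 and 1371 CPM, and Prcd at 289, 272, 279 and 258 CPM, none of them highest in the top group.

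The groups differed in other ways as well. RNA of the cone markers other than Thrb was at 62.5, 133, 314 and 545 CPM. The median nucleus held 779, 1426.5, 1059 and 1103 UMIs. What mitochondrial RNA, cone RNA and depth add to these differences was not tested.

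**Figure D4:**
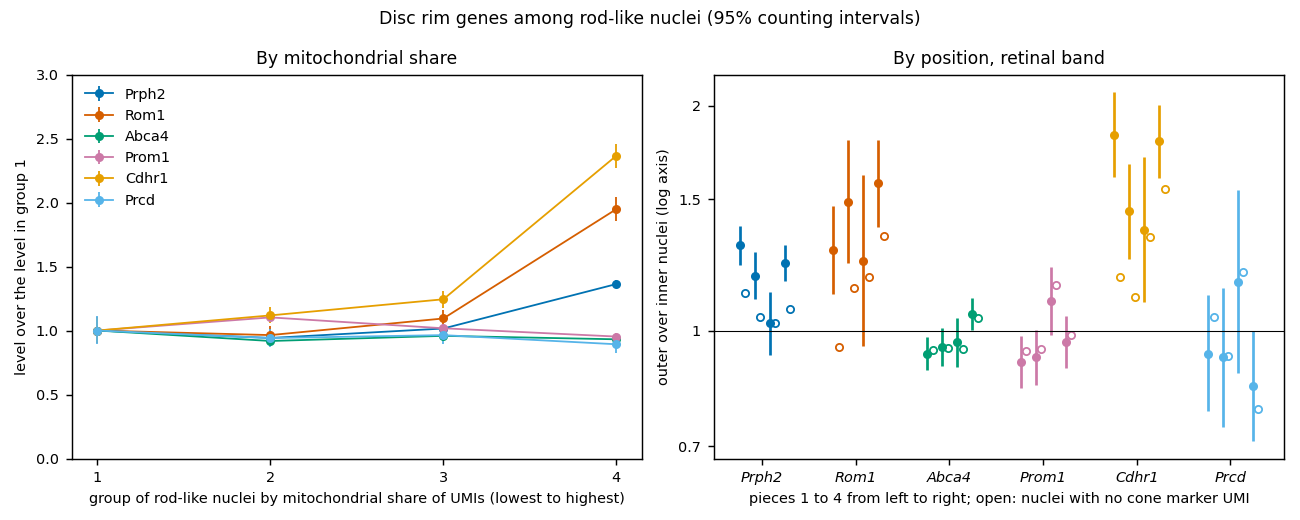
Left, level of each disc rim gene in 4 groups of rod-like nuclei ordered by mitochondrial share, divided by its level in group 1. Right, ratio of the outer to the inner rod-like nuclei of the retinal band for pieces 1 to 4 (log axis). Open points are nuclei that held no UMI of the cone markers other than Thrb. Bars are 95% counting intervals, on the left of the level alone. Cdhr1 (395 to 935 CPM), Rom1 (325 to 633 CPM) and Prph2 (2246 to 3062 CPM) are highest in group 4, and the right panel's open points lie nearer 1 than the filled ones for Cdhr1 and Prph2 in pieces 1, 2 and 4.

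The 6 clusters that make up the rod-like class showed the same split. In the cluster with most Prph2 (544 nuclei, 0.238% mitochondrial UMIs), it was at 2966 CPM, Rom1 at 596 CPM and Cdhr1 at 964 CPM. In the cluster with least Prph2 (169 nuclei whose leading genes include Fgf2os and Col25a1, 0.0992% mitochondrial UMIs) the 3 genes were at 1688, 250.1 and 350.2 CPM. Prom1 went the other way, at 1361 CPM in the first and 1789 CPM in the second. Abca4 differed by at most 1.20 times between any of the clusters. In the second cluster 65.7% of nuclei came from pieces 2 and 3.

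The tissue pieces differed for the same genes. In rod-like nuclei of pieces 1 to 4, Prph2 was at 2732, 2134, 1985 and 2738 CPM. Rom1 was at 514, 327, 274 and 496 CPM, and Cdhr1 at 650.0, 526, 436 and 689 CPM. Pieces 1 and 4 were thus high and pieces 2 and 3 low for these 3 genes, with no overlap of intervals between the pairs. Prcd had that order as well, at 284, 243, 227 and 310 CPM, but its intervals for pieces 1 and 2 overlapped. Abca4, at 3538, 3160, 3153 and 3683 CPM, had the order too, with separate intervals and a smaller step. Prom1 had the opposite order, at 1428, 1522, 1534 and 1426 CPM, but its intervals for pieces 1 and 2 overlapped.

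**Figure D5:**
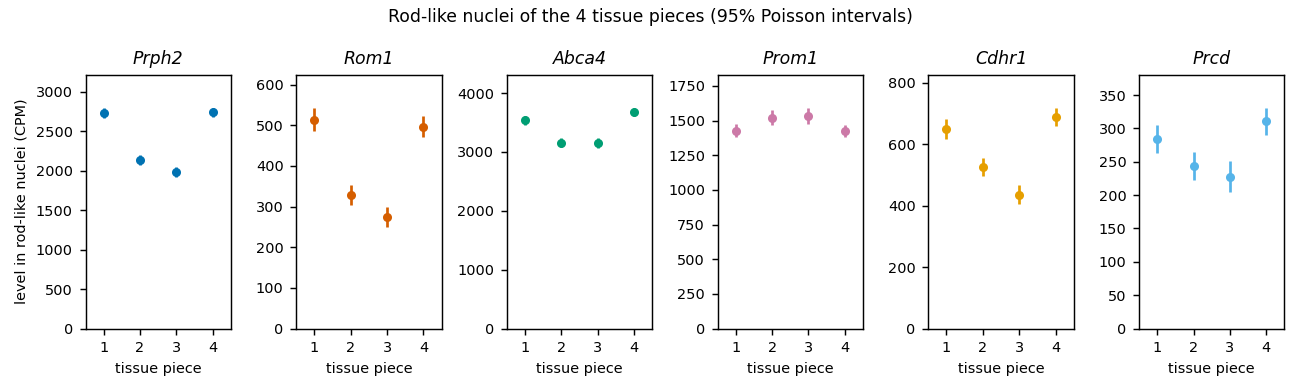
Level of each disc rim gene in rod-like nuclei of the 4 tissue pieces (CPM, axes from 0; bars are 95% Poisson intervals). Pieces 1 and 4 lie above pieces 2 and 3 for Rom1 (514 and 496 against 327 and 274), Prph2 and Cdhr1, and Prom1 varies least of the 6.

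The highest piece over the lowest was 1.88 for Rom1 (1.69 to 2.09), 1.58 for Cdhr1, 1.38 for Prph2, 1.37 for Prcd, 1.17 for Abca4 and 1.08 for Prom1. None of the 6 members passed a ratio of 2 by its lower bound, beside 1.33% of genes. In the same nuclei Gnat1 was at 3849, 2999, 2530.3 and 3657 CPM, a ratio of 1.52, and the median nucleus held 950 to 1199 UMIs. Within the retinal band, the nuclei from 300 coordinate units outside to 1000 units inside the RPE-like layer, the ratio was 2.06 (1.79 to 2.38) for Rom1 and 2.01 (1.78 to 2.27) for Cdhr1, still not past 2 by the lower bound (background 1.93%). In rod-poor cone-like nuclei Prph2 was at 797, 607, 748 and 779 CPM, with pieces 1 and 4 again above pieces 2 and 3, but the intervals overlapped and that of the highest over the lowest piece, 1.31 (0.993 to 1.74), included 1. The pieces differ in position, in Gnat1 and in whatever else sets them apart on the chip, and these cannot be told apart.

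Position across the photoreceptor layer was measured from the RPE-like nuclei inward. Over all rod-like nuclei with a depth, Cdhr1 in the outer over the inner nuclei, split at the median depth of each piece, was 1.55, 0.902, 1.26 and 0.882 in pieces 1 to 4, with no common direction. Rods outside the band made up 1702 of those nuclei, and in the band alone the ratio for Cdhr1 was 1.83 (1.60 to 2.09), 1.44 (1.25 to 1.67), 1.36 (1.09 to 1.71) and 1.79 (1.60 to 2.01). Rom1 in the band was at 1.28, 1.49, 1.24 and 1.58, with the interval of piece 3 including 1, and Prph2 at 1.30, 1.18, 1.02 and 1.23. Abca4 lay between 0.931 and 1.05, Prom1 between 0.908 and 1.10 and Prcd between 0.844 and 1.16. The outer nuclei of the band also held more RNA of the cone markers other than Thrb. It was, for example, at 745 against 54.2 CPM in piece 1 and at 393 against 133 CPM in piece 4.

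Rod-like nuclei of the band with no UMI of the cone markers other than Thrb gave smaller differences. Cdhr1 was at 1.18 (0.997 to 1.40), 1.11 (0.921 to 1.34), 1.33 (1.04 to 1.72) and 1.55 (1.34 to 1.79) in pieces 1 to 4, clear of 1 in pieces 3 and 4. Rom1 was at 0.951, 1.14, 1.18 and 1.34, clear of 1 in piece 4. Prph2 was at 1.12 (1.05 to 1.21), 1.04, 1.02 and 1.07, clear of 1 in piece 1 and, barely, in piece 4. This restriction was chosen after the data had been seen, and whether it removes cone RNA alone was not tested.

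The left and right sides of each piece were compared as well. They differ in the share of Opn1sw among cone opsin UMIs, which marks the dorsoventral axis, at 20.2 and 57.2% in piece 1 and 62.0 and 11% in piece 3. Prph2 on the left over the right was 1.03, 1.07, 0.902 and 0.909 in pieces 1 to 4. In pieces 1 and 2 the right side has more Opn1sw and in pieces 3 and 4 the left side has, so Prph2 was lower on the side of more Opn1sw in pieces 2, 3 and 4, with intervals clear of 1. In piece 1 the interval included 1, and after thinning to 500 UMIs the ratio there was 0.983. Cdhr1 was at 0.785 (0.679 to 0.908) in piece 3 and Rom1 at 1.22 (1.05 to 1.41) in piece 2. In the band the Prph2 ratio was 1.03, 1.04, 0.914 and 0.944, and its interval was clear of 1 in piece 4 alone. Rom1 in the band was higher on the left in pieces 2 (1.39, 1.16 to 1.67) and 3 (1.61, 1.12 to 2.39), which have opposite Opn1sw sides.

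Whether the members were found in the same nuclei was asked of rod-like nuclei thinned to 500 UMIs. Of the 5608 nuclei, 2.16% held none of the 6, 36.1% held 2 and 0.0535% held all 6. Most of the 15 pairs were found together about as often as their single shares give, between 0.962 and 1.07 times for 12 pairs. Rom1 and Cdhr1 were found together 1.22 times as often, and Prph2 and Rom1 1.10 times, while Rom1 and Prcd were at 0.856. Thinned to 1000 UMIs, those 3 pairs were at 1.17, 1.04 and 0.915. The counts are sparse and these ratios are descriptions.

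Over the 17 classes, the genes whose levels were most like each member's were ranked by Pearson's r of log2 CPM among 13154 genes; the classes share 1 library and its free RNA, so r is a description. For Prph2 the 5 nearest included Sag (0.992) and Pde6a (0.988), and the other members ranked from 101 (Prom1, 0.903) to 194 (Cdhr1, 0.856). Rom1, Abca4 and Cdhr1 were near each other. The genes most like Cdhr1 were Abca4 (0.959), Rom1 (0.957), Rgs9 (0.957), F630040K05Rik (0.940) and Unc119 (0.939). Those of Abca4 began with Slc24a1 (0.966), a gene at 773 CPM in RPE-like nuclei, followed by Cdhr1, F630040K05Rik, Rom1 and Agpat3. Those of Rom1 were Unc119 (0.976), Agpat3 (0.961), Cdhr1, Abca4 and F630040K05Rik, and those of Prcd were Rgs9 (0.963), Agpat3, Abca4, Cdhr1 and Wdr78. The genes nearest to Prom1 were AI847159 (0.943), Frmpd2 (0.934), Pdzph1 (0.931), Crxos (0.929) and Egflam (0.929), and the member nearest to it was Prph2 (0.903).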

How the data were processed

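Per barcode and gene, the authors deposited unnormalized UMI counts, as the whole numbers in the matrix show, and X and Y positions in a unit of unknown length. Tools named by the submitters' processing notes are fastp, STAR and Seurat 4.1.1, and mm10 is the build. What each tool did, the gene annotation, strand setting, intron counting and cell calling stay unknown (not given in the sources used here). Both samples are without a group, and 0 columns of other samples were found.

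Nuclei with at least 200 genes and under 10% mitochondrial UMIs were kept. Scrublet marked 0 of them (3 counts would be 0.0178%), so it was taken not to have worked and doublets remain. Counts were scaled to 10000, and 2000 variable genes without the list genes, 30 components, 15 neighbours and Leiden resolution 1 gave 41 clusters (scanpy 1.11.5, python 3.11.15). A cluster was named from marker lists when its best marker score was at least 0.25 and the second at most 0.65 of it. At least 3 markers had to lead, and no other class could have more markers among the cluster's top 10 genes. A cluster of few UMIs with no own marker among those genes was not named either. By these rules 7 clusters with 1737 nuclei stayed unnamed. These limits, the band and the splits by rod marker share were set after the data had been seen. The depth of a nucleus is its distance from nearby RPE-like nuclei.

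Levels are pooled CPM with exact Poisson 95% intervals, shares carry Clopper-Pearson intervals, and ratios exact conditional binomial intervals. A gene was measured with at least 20 UMIs in photoreceptor classes. The scripts were tested on simulated data. Members and lists were chosen with earlier results of these data known. Named genes are the members, up to 5 photoreceptor-high genes per list in order of the lower photoreceptor level, the family gene highest in rod-like nuclei after the members, and the 5 genes of highest r (genes of at least 200 UMIs, pseudocount 1). Other genes were named after their values were seen. Promoter sequences and positions are RefSeq's for GRCm38.p6, the assembly of mm10; 6 of 6 members matched by symbol. Some results are not reported here.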

Additional observations from a re-analysis of the deposited data

How the results depend on the processing

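No paired analysis was possible because neither sample carries a group label and 1 library holds all the expression. The cone-like values depended most on the processing. Prph2 over its rod-like level was 0.749 as reported, and 0.508 at resolution 2, 0.95 with 15 components, 0.485 with at least 500 genes per nucleus, 0.534 as the mean over nuclei, 0.557 after thinning to 500 UMIs and 0.297 in rod-poor nuclei. For Cdhr1, 1.79 as reported became 1.56, 1.92, 1.55, 2.10 and 2.14 under the first 5 of these. The members past 1.5 between cone-like and rod-like nuclei numbered 1 as reported, 3 at resolution 2, with at least 500 genes and after thinning, 5 as the mean over nuclei and 6 in rod-poor nuclei. At resolution 0.5, with the list genes kept for clustering, or under 5% mitochondrial UMIs, no cluster was named cone-like, and no cone value could be given.

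Members called photoreceptor-high numbered 5 as reported, 2 after thinning (Prph2 and Prom1), 3 at a ratio of at least 3 and 3 in rod-poor nuclei. With 15 components all 6 were called, Abca4 included. At resolution 2 and with at least 500 genes per nucleus 4 were called, without Prcd, which was not called as the mean over nuclei either. Without mitochondrial genes and Gm42418 in the totals 4 were called, without Cdhr1. Leaving out each piece gave 3 to 5, with 3 when piece 4 was left out. List genes called numbered 22 as reported, 7 after thinning and 12 in rod-poor nuclei, and 21 to 23 without each piece. Thinning leaves fewer counts and so wider intervals. Leaving out each piece gave 0.725 to 0.795 for the Prph2 ratio, 1.73 to 1.95 for the Cdhr1 ratio and 2319.7 to 2560.4 CPM for Prph2 in rod-like nuclei. The Prph2 level there was 2334 CPM at resolution 0.5, 2270.3 with list genes kept, 2382 with 15 components, 2340.4 under 5% mitochondrial UMIs, 2523 without mitochondrial genes and Gm42418 in the totals, 2278 as the mean over nuclei, 2255 after thinning and 2513 in the band.

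After thinning, Rom1 outer over inner in piece 1 reversed to 0.960, and left over right in piece 4 reversed for Rom1 (1.08) and Cdhr1 (1.07). In the band, outer over inner reversed in piece 4 for Prph2 (1.23), Rom1 (1.58), Abca4 (1.05) and Cdhr1 (1.79), and in piece 3 for Abca4 (0.964). The cause was not tested. The splits by rod marker share and the sets without UMIs of the cone markers other than Thrb were chosen after seeing the data. Of 607 values under alternatives for 81 results, 402 stayed within the counting interval (counts, within 1.5 times), 197 moved further and 8 reversed, a count that covers ratios whose interval as reported was clear of 1. Among the 197, 17 were ratios that lay on the other side of 1 from a reported value whose interval included 1, for example Prcd outer over inner in piece 3 after thinning (0.921 in place of 1.16). Counts limit the members with few UMIs most: Prcd had 349 and Rom1 863 in cone-like nuclei.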
